A study of Rattus norvegicus with 6 samples.

Results

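Aquaporins are membrane channels for water, some of which also pass glycerol, and the vasopressin V2 receptor is the hormone receptor that sets how much water the collecting duct takes back. The 8 aquaporin genes Aqp1, Aqp2, Aqp3, Aqp4, Aqp6, Aqp7, Aqp8 and Aqp11 and the V2 receptor gene Avpr2 were followed in the renal cortex of rats given dipropylene glycol (DPG), a glycol solvent, or water. These 9 genes were chosen by name, out of 15645 genes that could be named on the array. Every non-control probe whose RefSeq transcript belongs to 1 of them was taken, which gave 18 of 61537 probes. Of these, 16 passed the filter on dim signal and were tested. The other 2 were Aqp4 probes near the background.

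The DPG group was 3 male Sprague-Dawley (Crl:CD(SD)) rats given 1000 mg/kg/day for 4 weeks, and the control group was 3 rats of the same strain and sex given water for 4 weeks. All were bought at 5 weeks of age and kept on a basal diet with free tap water. Total RNA of the renal cortex, the outer layer that holds the glomeruli, went onto 1 one-colour Agilent array per animal. The comparison asked which transcripts of the cortex differed after DPG.

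Between 39556 (control 3) and 43184 (control 2) probes per array were well above background, and the DPG arrays lay between 41524 and 41937. Control 3 also had 34 spots with outlier flags, against 4 in DPG 1 and 0 on each of the other arrays, and 0 spots were saturated. Pearson correlations between arrays, across the 40383 kept probes, were 0.992 to 0.994 within DPG, 0.991 to 0.993 within controls and 0.989 to 0.993 across the groups. The DPG rats shared 1 slide and 1 scan run and the control rats shared the other, which means that an effect of slide or scan and one of DPG cannot be told apart. The defining cortex markers Lrp2, Cubn, Umod, Nphs1 and Slc12a3 were well above background on all 6 arrays. In whole tissue, fewer cells of a type and less RNA per cell cannot be told apart. Precision is limited by having 3 arrays per group.

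In the kidney the water channels are laid out along the nephron. Aqp1 lines the proximal tubule and the thin descending limb and works without hormone control. In the principal cells of the collecting duct, vasopressin binds the V2 receptor, which raises cAMP through the G protein Gs, and protein kinase A then drives vesicles with Aqp2 into the apical membrane and raises Aqp2 transcription. Water leaves the same cells on the basolateral side through Aqp3 and Aqp4. Loss of function of the V2 receptor or of Aqp2 is known to cause nephrogenic diabetes insipidus in humans.

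Short windows around the transcription start were read from RefSeq promoters of the assembly GRCr8, which matched 8 of the 9 genes in 9 windows, with Aqp4 holding a pair and Aqp7 not matched. Each window runs from 250 bases before the start to 50 bases after it. Below stand those of Aqp2 and Aqp3, the pair of principal cell channels whose brightest probes differed in sign, and of Aqp1, the constitutive channel. Capitals mark TGACG (the core of the cAMP response element), AGATAA (the motif of GATA factors) and TATAAA (the TATA box), each searched on both strands. None of the marked stretches overlap.
Aqp2, chr7:132590036-132590335, plus strand: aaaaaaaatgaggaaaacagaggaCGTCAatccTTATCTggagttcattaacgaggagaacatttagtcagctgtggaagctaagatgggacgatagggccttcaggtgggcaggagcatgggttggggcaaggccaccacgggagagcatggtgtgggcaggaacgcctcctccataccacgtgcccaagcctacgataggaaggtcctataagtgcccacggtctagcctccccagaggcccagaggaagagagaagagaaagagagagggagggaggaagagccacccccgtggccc
Aqp3, chr5:61040634-61040933, minus strand: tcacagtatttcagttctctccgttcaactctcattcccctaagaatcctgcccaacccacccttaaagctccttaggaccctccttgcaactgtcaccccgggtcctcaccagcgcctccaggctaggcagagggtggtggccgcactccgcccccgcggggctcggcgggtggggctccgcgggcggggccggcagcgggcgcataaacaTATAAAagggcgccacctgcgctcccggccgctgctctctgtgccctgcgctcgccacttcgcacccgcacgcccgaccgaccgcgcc
Aqp1, chr4:85812534-85812833, plus strand: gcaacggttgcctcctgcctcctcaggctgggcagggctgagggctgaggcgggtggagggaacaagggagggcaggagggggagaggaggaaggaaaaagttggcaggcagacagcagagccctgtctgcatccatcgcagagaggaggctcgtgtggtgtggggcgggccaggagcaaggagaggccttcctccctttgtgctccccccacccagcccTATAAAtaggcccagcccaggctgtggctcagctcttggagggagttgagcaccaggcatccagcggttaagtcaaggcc

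The Aqp2 window was the only 1 of the 9 with TGACG, on the minus strand, 226 to 222 bases before the start. It was also the only 1 with AGATAA, again on the minus strand, 217 to 212 bases before the start. Of all 33469 promoter windows, 21.2% held TGACG and 11.6% held AGATAA. The TATA box letters lay 38 to 33 bases before the start of Aqp3 and 30 to 25 bases before that of Aqp1, and a minus-strand match lay 45 to 40 bases before that of Avpr2, where 14.2% of all windows held it. In the same annotation Aqp2, Aqp5 and Aqp6 stand in a row on chromosome 7, and Aqp7 and Aqp3 are direct neighbours on chromosome 5.

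Signal is given as log2 of the processed intensity relative to the 75th percentile of its array, so 0 is the level of that percentile. Probes differ in how well they bind, so the level of 1 probe is not read against that of another. The Aqp2 minus Aqp3 values given further on serve only to compare the groups. Fold changes are log2, DPG over control, with the standard error (SE) from limma's moderated fit over all 40383 kept probes.

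None of the 9 genes passed the adjusted threshold. Limma with Benjamini-Hochberg adjustment called 0 of the 16 tested probes at an adjusted p of 0.05, against 0% of all 40383 probes, and the adjusted p of the 16 ran from 0.329 to 0.953. The smallest over the whole array was 0.131. At an unadjusted p of 0.05, 2 of the 16 probes passed (12.5%), both for Aqp4 and both higher in DPG, and 0 were lower. Over all probes 12.4% passed (5008), 6.56% higher and 5.84% lower, so the share of the water channel probes was near the background. For 3 of the 16 probes (18.8%, against 19.7% of all probes) the ranges of DPG and control arrays stood apart. These were the same Aqp4 probes, higher in DPG, and the Aqp7 probe, lower in DPG. In all, 12 fold changes lay above 0 and 4 below, with a median of 0.08, where the median over all probes was 0.0010. Over the 14 of them that were well above background on all 6 arrays, 10 lay above 0 and 4 below, with a median of 0.06.

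**Figure D1:**
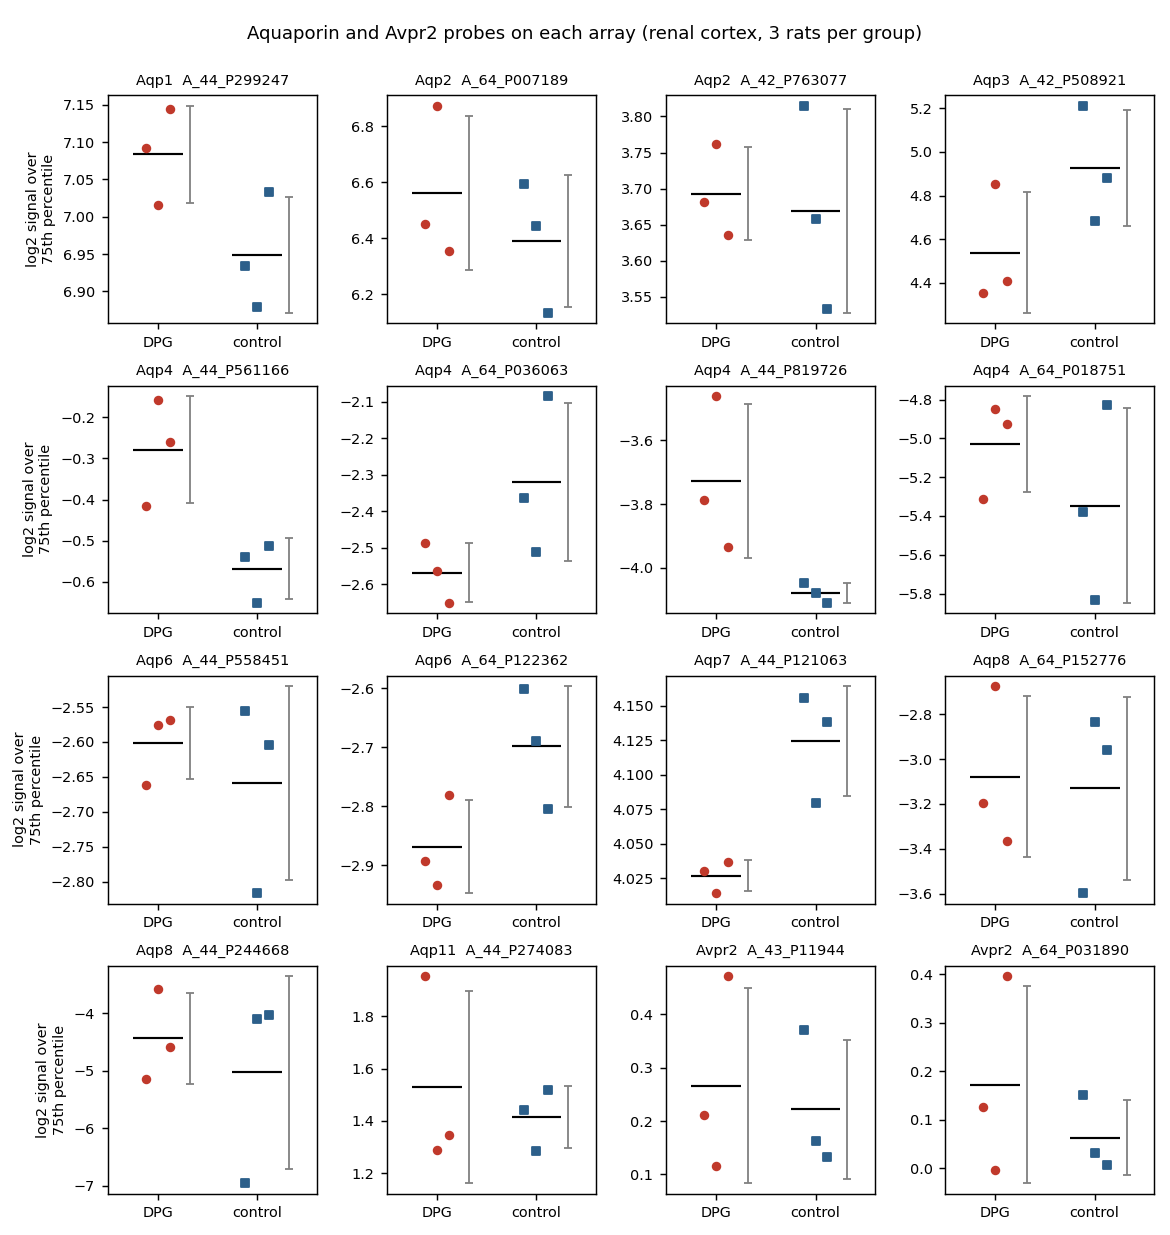
Log2 signal relative to the array's 75th percentile (y axis, own scale in each panel) for the 16 kept probes, with DPG arrays as red circles and control arrays as blue squares (3 each), the group mean as a black line and the SD as a grey bar. The groups stand apart without overlap in the Aqp4 panels A_44_P561166 and A_44_P819726 and in the Aqp7 panel, and overlap in the other 13.

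Avpr2, the V2 receptor that couples vasopressin to cAMP, was read by a pair of probes that gave the same picture. Probe A_43_P11944 had 0.21, 0.12 and 0.47 on DPG arrays 1 to 3, against 0.37, 0.16 and 0.13 on control arrays 1 to 3. Probe A_64_P031890 had 0.13, -0.0037 and 0.40 in DPG, against 0.15, 0.032 and 0.0058 in controls. On both probes DPG 3 was the highest and DPG 2 the lowest of the 6 arrays, DPG 1 lay among the controls, and the groups overlapped. The log2 fold changes were 0.04 ± 0.12 and 0.11 ± 0.12 (SE, n = 3 per group), with limma adjusted p = 0.907 and 0.736. The 95% interval of the fold itself ran from 0.841 to 1.27 and from 0.884 to 1.32, so a change of receptor mRNA within those bounds is compatible with these values. The smallest change that these arrays could detect was not computed. Without DPG 3 the fold changes were -0.06 and -0.0020, and with normexp background correction that of A_43_P11944 was -0.01.

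Aqp2, the vasopressin-regulated apical channel, did not differ beyond the spread between rats. Its brighter probe, A_64_P007189, had 6.45, 6.87 and 6.36 in DPG, against 6.59, 6.44 and 6.13 in controls. DPG 2 was the highest array and control 3 the lowest, and the groups overlapped. The second probe, A_42_P763077, had 3.68, 3.76 and 3.64 in DPG, against 3.81, 3.66 and 3.53 in controls, with control 3 again the lowest. Their fold changes were 0.17 ± 0.18 and 0.02 ± 0.09 (limma adjusted p = 0.733 and 0.938). The second probe was the tighter one, and its 95% interval of the fold ran from 0.869 to 1.19. For the brighter probe that interval was 0.830 to 1.53. Leaving out 1 rat moved the brighter probe between 0.01 (without DPG 2) and 0.27 (without DPG 3 or control 1), and the second probe changed sign without DPG 2 (-0.01), without control 3 (-0.04) and with normexp (-0.08).

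Aqp3, the basolateral channel for water and glycerol in the same cells, had the fold change farthest below 0 among the 9 genes. Its 1 probe, A_42_P508921, had 4.35, 4.86 and 4.41 in DPG, against 5.21, 4.68 and 4.88 in controls. DPG 1 and DPG 3 lay below every control array, while DPG 2 lay between controls 2 and 3. The fold change was -0.39 ± 0.19 (SE, 3 rats a group), a level 1.31-fold lower, with a limma unadjusted p = 0.0874 and adjusted p = 0.469. It lay below 0 in each alternative run, from -0.54 without DPG 2 to -0.24 without control 1. The unadjusted p was 0.0245 without DPG 2 and 0.0495 without control 2 (-0.51).

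Because the brightest Aqp2 probe and the Aqp3 probe differed in opposite directions, the pair was also set against each other within each array. This was chosen after the values were seen and gets no test. The brighter Aqp2 probe minus the Aqp3 probe was 2.10, 2.02 and 1.95 in DPG, against 1.38, 1.76 and 1.25 in controls (log2). The groups did not overlap, and their means were 2.02 ± 0.08 and 1.46 ± 0.26 (SD, n = 3 each), a difference of 0.56. With the second Aqp2 probe the values were -0.67, -1.09 and -0.77 in DPG, against -1.40, -1.02 and -1.35 in controls, a difference of 0.41. Here DPG 2 lay below control 2, so the groups overlapped. Both differences take away the same Aqp3 probe, and both Aqp2 fold changes lay above 0, so their shared sign was fixed in advance. The separation of the groups depended on which Aqp2 probe was read. How often other pairs of probes separate the groups was not counted.

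**Figure D2:**
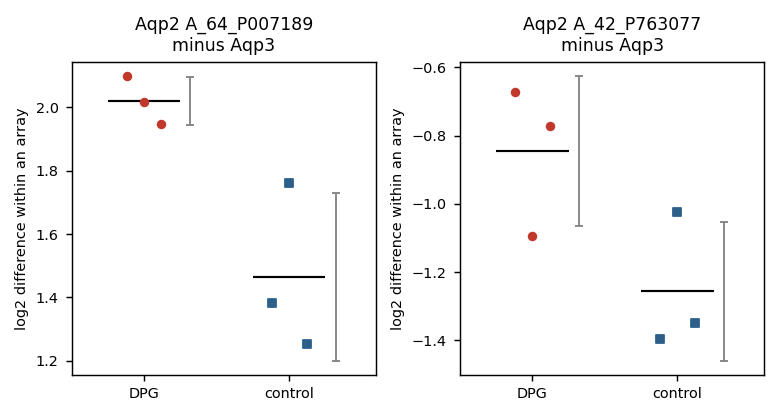
Log2 signal of each Aqp2 probe minus that of the Aqp3 probe on the same array (y axis), with DPG arrays as red circles and control arrays as blue squares, the mean as a black line and the SD as a grey bar. With A_64_P007189 all 3 DPG arrays lie above all controls, and with A_42_P763077 DPG 2 (-1.09) lies below control 2 (-1.02).

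Aqp4, the other basolateral channel of principal cells and the main water channel of astrocytes, was covered by 6 probes, which disagreed. The brightest, A_44_P561166, had -0.42, -0.16 and -0.26 in DPG, against -0.54, -0.65 and -0.51 in controls. Every DPG array lay above every control. Probe A_44_P819726 had -3.79, -3.46 and -3.93 in DPG, against -4.05, -4.08 and -4.11 in controls, again without overlap. Their fold changes were 0.29 ± 0.09 and 0.35 ± 0.13 (SE, n = 3 per group), 1.22-fold and 1.27-fold, with limma unadjusted p = 0.0187 and 0.0343 and adjusted p = 0.329 and 0.372.

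The other Aqp4 probes did not separate the groups. Probe A_64_P036063 had -2.49, -2.56 and -2.65 in DPG, against -2.36, -2.51 and -2.08 in controls, a fold change of -0.25 ± 0.12 (limma adjusted p = 0.473), opposite in sign to the brightest. Probe A_64_P018751 had -5.31, -4.85 and -4.93 in DPG, against -5.38, -5.83 and -4.83 in controls (0.32 ± 0.27, limma adjusted p = 0.669), and was well above background on 3 DPG and 2 control arrays, so it was kept through the DPG group alone. The groups overlapped on both. Probe A_44_P934428 was not well above background on any array, and probe A_44_P448461 on 0 DPG arrays and 1 control array, so neither was tested. A_44_P448461 is assigned to the transcript NM_012825 and the other 5 to NM_001142366. Where on those transcripts the probes bind was not analysed here.

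The mean of the 4 tested Aqp4 probes gave 0.18, with a limma unadjusted p = 0.200. This mean includes A_64_P018751, which was kept through the DPG group alone. With normexp background correction the leading pair had fold changes of 0.21 and 0.16 (unadjusted p = 0.0901 and 0.157). The brightest probe had an unadjusted p above 0.05 without DPG 2 (0.0562), without DPG 3 (0.0506) and without control 2 (0.0608). For A_44_P819726 this held without DPG 1 (0.0581), control 1 (0.0663), control 2 (0.0757) and control 3 (0.0840), and its fold change was 0.22 without DPG 2. With an intensity trend and robust variance its unadjusted p was 0.0666. A_64_P036063 reached an unadjusted p of 0.0312 without control 2 (-0.34).

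**Figure D3:**
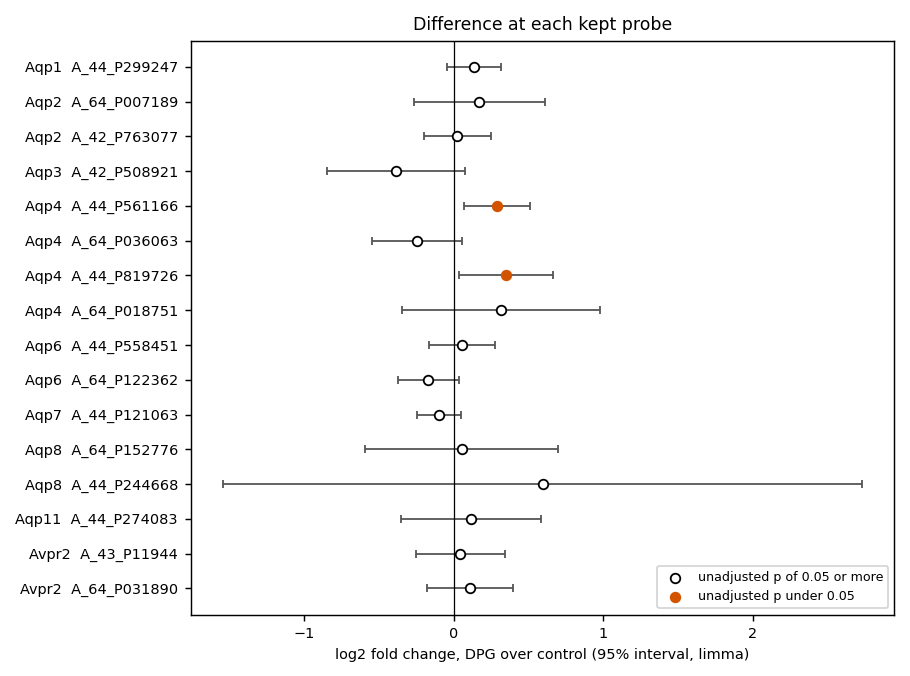
Log2 fold change, DPG over control, of the 16 kept probes (x axis) with 95% intervals from limma; filled orange points have an unadjusted p under 0.05. Only the intervals of the Aqp4 probes A_44_P561166 (0.07 to 0.51) and A_44_P819726 (0.04 to 0.66) leave out 0, and the widest is that of the dim Aqp8 probe (-1.54 to 2.73).

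Aqp6, an anion-permeable channel kept in intracellular vesicles of acid-secreting intercalated cells, was read by a pair of probes with opposite signs. Probe A_44_P558451 had -2.66, -2.58 and -2.57 in DPG, against -2.56, -2.82 and -2.60 in controls, a fold change of 0.06 ± 0.09 (limma adjusted p = 0.826). Probe A_64_P122362 had -2.89, -2.93 and -2.78 in DPG, against -2.60, -2.69 and -2.81 in controls, a fold change of -0.17 ± 0.08 (limma adjusted p = 0.468). On the second probe only DPG 3 reached into the control range. The interval of the fold was 0.893 to 1.21 for the first probe and 0.772 to 1.02 for the second. The second had an unadjusted p of 0.0486 without control 3 (-0.22), and the first was at -0.02 without control 2 and at -0.00098 with normexp. Of 7 intercalated cell markers, given further on, 3 had an unadjusted p under 0.05 and were lower in DPG, against 5.72% of all gene features. This count ranged from 1 to 4 with a rat left out, and 0 passed the adjusted threshold. The part of intercalated cells in the values of the Aqp6 probes, which differed in sign, was not tested.

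Aqp1, the constitutive channel of the proximal tubule and thin descending limb, which is also known in red blood cells and in the endothelium of the descending vasa recta, had high signal and little spread. Its 1 probe had 7.09, 7.02 and 7.14 in DPG, against 6.93, 6.88 and 7.03 in controls. The lowest DPG array and the highest control touched, so the groups overlapped by a small margin. The fold change was 0.13 ± 0.07 (SE, n = 3 per group), with a limma unadjusted p = 0.119 and adjusted p = 0.513, and the 95% interval of the fold was 0.968 to 1.25. With normexp background correction the fold change was 0.21 (limma unadjusted p = 0.0240, adjusted p = 0.263), and with an intensity trend and robust variance the unadjusted p was 0.0495.

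Aqp7, a channel for water and glycerol in the brush border of the straight proximal tubule and in fat cells, was lower by a small amount. Its 1 probe had 4.03, 4.01 and 4.04 in DPG, against 4.16, 4.08 and 4.14 in controls. All DPG arrays lay below all controls, and they spread by an SD of 0.01, against 0.04 in controls. The fold change was -0.10 ± 0.06, 1.07-fold lower, with a limma unadjusted p = 0.155 and adjusted p = 0.554. The interval of the fold, 0.844 to 1.03, leaves out a loss larger than 1.18-fold.

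Aqp11, an intracellular channel of the endoplasmic reticulum in proximal tubule cells, whose loss is known to give polycystic kidneys in mice, turned on 1 rat. Its 1 probe had 1.95, 1.29 and 1.35 in DPG, against 1.44, 1.29 and 1.52 in controls. DPG 1 lay above all other arrays, and the other DPG arrays lay within the control range. The fold change was 0.11 ± 0.19 (limma adjusted p = 0.838), and -0.10 without DPG 1.

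Aqp8, known in rats from intracellular sites of proximal tubule and collecting duct cells and from liver and pancreas, varied most between rats of 1 group. The brighter probe, A_64_P152776, had -3.19, -2.67 and -3.36 in DPG, against -3.60, -2.83 and -2.96 in controls. The dimmer probe, A_44_P244668, had -5.14, -3.58 and -4.59 in DPG, against -6.96, -4.09 and -4.03 in controls. Both probes were highest in DPG 2 and lowest in control 1, where the dimmer one was not well above background. The fold changes were 0.05 ± 0.26 and 0.59 ± 0.87 (limma adjusted p = 0.953 and 0.813). Without control 1 both were below 0, at -0.18 and -0.37, and without DPG 2 the brighter was at -0.15.

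Other genes of the aquaporin family and of the vasopressin pathway came from 4 lists with 57 genes, of which 50 had a kept probe. Each gene was read by its brightest kept probe. At an unadjusted p of 0.05, 6 of the 50 genes were higher and 5 were lower, against 6.72% and 5.72% of 29647 gene features in those directions. None passed the adjusted threshold in limma (0% of all features). The 4 further aquaporins, namely Mip of the eye lens, Aqp5 of glands and lung, Aqp9 of the liver and Aqp12a of the pancreas, had fold changes of 0.11, 0.24, -0.06 and 0.07, and none had an unadjusted p under 0.05, although 1 of them had without DPG 1. Aqp5 spread widely in DPG, with -4.87, -3.01 and -3.46, against -4.04, -3.97 and -4.05 in controls.

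Of 22 measured genes of vasopressin and cAMP signalling, 2 were higher, 3 lower and 17 did not pass the unadjusted p of 0.05, with a median fold change of 0.06. Avpr1a, the V1a vasopressin receptor, which couples to calcium rather than cAMP, had -2.04, -1.80 and -1.91 in DPG, against -1.59, -1.50 and -1.56 in controls. Its fold change was -0.37 ± 0.08 (limma adjusted p = 0.265), and the groups did not overlap. The regulatory protein kinase A subunit gene Prkar2a had -3.30, -3.11 and -3.13 in DPG, against -3.53, -3.54 and -3.66 in controls, a fold change of 0.40 ± 0.08 (limma adjusted p = 0.256). Pde4d, a phosphodiesterase that breaks down cAMP, had -0.39 ± 0.11, although its 4 probes ran from -0.39 to 0.14. The purinergic receptor gene P2ry2, which opposes vasopressin in the collecting duct, had 0.28 ± 0.10. The remaining lower gene, Pde3b, another cAMP phosphodiesterase, is named after its values were seen. It had -3.37, -2.64 and -3.67 in DPG, against -2.65, -2.24 and -2.57 in controls (-0.74 ± 0.28, limma adjusted p = 0.376), with DPG 2 inside the control range. With normexp the fold change of Prkar2a was 0.18 (unadjusted p = 0.0229), that of P2ry2 was 0.13 (0.112) and that of Pde3b was -0.31 (0.0686), while the mean of Pde4d's probes gave -0.17 (0.348). P2ry2 also missed an unadjusted p of 0.05 without DPG 3 (0.0723), control 1 (0.0823) or control 2 (0.0828), and Pde3b did without any 1 rat other than DPG 2. The count of higher genes was 1 without control 1.

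Of 15 genes of Aqp2 vesicle traffic, 2 were higher, 1 lower and 12 did not pass, with a median of 0.05. Vta1 (LIP5), which helps send Aqp2 to lysosomes, had 2.86, 2.85 and 2.88 in DPG, against 2.71, 2.53 and 2.62 in controls (0.24 ± 0.07, limma adjusted p = 0.316). Hspa8, the constitutive heat shock cognate that binds Aqp2, had 0.23 ± 0.09, and the motor gene Myo5b had -0.30 ± 0.11. Among 9 collecting duct transcription factors, 2 were higher and 1 lower, with a median of 0.01. Gata2, known in mice to be needed for Aqp2 expression, had -2.78, -2.81 and -2.72 in DPG, against -2.60, -2.42 and -2.32 in controls (-0.32 ± 0.09, limma adjusted p = 0.304). Elf3 had 0.42 ± 0.12, and its second probe read 0.05. Nfat5, the tonicity factor, had 0.21 ± 0.08, with 4 probes from -0.30 to 0.30. With normexp Gata2 was at -0.18 (unadjusted p = 0.0881), and the means of the probes of Elf3 and Nfat5 gave 0.24 (0.102) and 0.08 (0.344). Hspa8, Myo5b and Nfat5 each missed an unadjusted p of 0.05 with 4 or more of the 6 rats left out in turn. These small counts moved by over 1.5 times when a rat was left out. In vesicle traffic the higher count was 1 without DPG 2, DPG 3, control 1 or control 2, and the lower count was 0 without DPG 3, control 1 or control 3. Among the transcription factors the higher count was 1 without DPG 1, DPG 2, control 1 or control 3, and the lower count was 2 without DPG 2 or control 3.

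Markers of the cells that hold these channels were read in the same way, as lists chosen with earlier results of these data known. The 5 measured principal cell markers did not move as a group. None passed an unadjusted p of 0.05 and the median was 0.04, with Kcnj1 (a potassium channel) at 0.20 ± 0.12, Hsd11b2 (which inactivates glucocorticoids) at -0.17 ± 0.11, and the sodium channel subunit genes Scnn1a and Scnn1b at 0.07 ± 0.11 and 0.04 ± 0.10. Their mean level, relative to the control mean, was -0.06 to 0.11 in DPG and -0.04 to 0.03 in controls, and all were well above background on all 6 arrays. Without control 2, 1 marker was higher and 1 lower.

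All 7 intercalated cell markers had fold changes below 0 (median -0.23), and 3 had an unadjusted p under 0.05, led by the proton pump subunit genes Atp6v0d2 (-0.23 ± 0.07) and Atp6v1g3 (-0.30 ± 0.11) and the anion exchanger gene Slc26a4 (-0.40 ± 0.13). The other 4 did not pass, and DPG and control arrays overlapped for Slc4a1, Slc4a9 and Foxi1. The mean level of the list was -0.41 to -0.07 in DPG and -0.03 to 0.02 in controls. That count was 1 without DPG 1, DPG 3, control 2 or control 3. All 7 convoluted proximal tubule markers also lay below 0 (median -0.20), 2 of them with an unadjusted p under 0.05, namely the sodium cotransporter genes Slc5a12 (-0.29 ± 0.08) and Slc5a2 (-0.29 ± 0.10). Their mean level was -0.26 to -0.17 in DPG and -0.11 to 0.07 in controls. That count was 1 without DPG 2, control 1 or control 3. Of 4 measured straight proximal tubule markers 3 were higher (median 0.52), with the amino acid transport genes Slc7a13 and Slc3a1 at 0.78 ± 0.16 and 0.29 ± 0.09 and the organic anion transporter gene Slc22a7 at 0.75 ± 0.23. The remaining gene, Slc5a1, lay below 0 at -0.12 ± 0.15 and did not pass. The mean level of this list was 0.32 to 0.53 in DPG and -0.24 to 0.18 in controls. The part of tubule makeup in the values of Aqp1, Aqp7, Aqp8 and Aqp11 was not tested.

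Markers of the medulla, where Aqp1 of the thin limb and the collecting duct channels Aqp2, Aqp3 and Aqp4 are also abundant, were higher for 3 of 7 genes (median 0.46). Cryab, a chaperone gene, had 1.56 ± 0.35, and the betaine transporter gene Slc6a12 had 0.46 ± 0.11. Their mean level was 0.42 to 0.63 in DPG and -0.12 to 0.14 in controls, and all 7 were well above background on all 6 arrays. The part of medulla in the values of Aqp1, Aqp2, Aqp3 and Aqp4, which differed in sign, was not tested. Aqp7 is also a fat cell gene, and 4 adipocyte markers were well above background on all 6 arrays, of which 2 were higher and 1 lower (median 0.14). Their mean level was 0.07 to 0.65 in DPG and -0.16 to 0.30 in controls, so the groups overlapped. Fabp4 had 1.89 ± 0.70 and Cidec 0.56 ± 0.20, and both missed an unadjusted p of 0.05 without DPG 1, DPG 3 or control 1. Adipoq, the defining fat cell hormone gene, had -0.45 ± 0.14, and missed it without control 1 or control 2. Retn was well above background on 3 DPG arrays and 1 control array and so was kept through the DPG group alone, and it is left out of these values. Lep and Plin1 had no kept probe. Red blood cell markers, beside Aqp1, had a median of 0.07 and 0 of 4 passed, and endothelial markers had a median of -0.06 and 1 of 5 passed (Pecam1, 0.18 ± 0.07, and 0 of 5 higher without DPG 1, DPG 2, DPG 3, control 1 or control 3, with 1 lower without DPG 1). Of 6 renal cortex markers 1 was higher (Umod, 0.25 ± 0.07) and 1 lower (Nphs1, -0.28 ± 0.11), with a median of -0.08. Their mean level was -0.04 to -0.03 in DPG and -0.06 to 0.07 in controls. The lower count was 0 in 5 of the 6 runs with a rat left out. Each of these counts stands against 6.72% of gene features higher and 5.72% lower, and 0 genes of the 9 marker lists passed the adjusted threshold in limma.

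**Figure D4:**
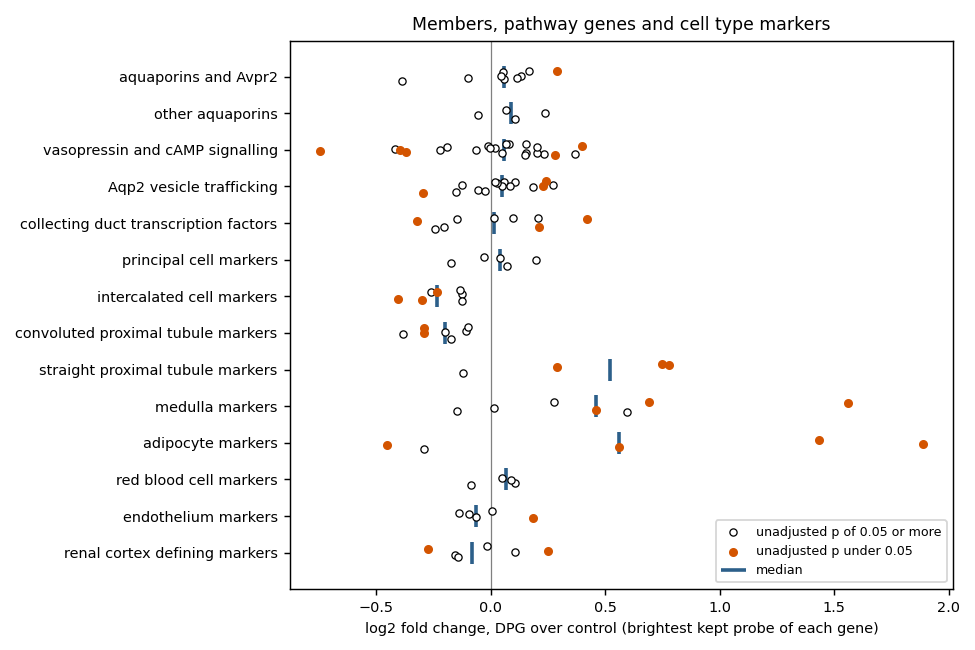
Log2 fold change, DPG over control, of each gene's brightest kept probe (x axis) for the water channel genes with Avpr2 (top row), the 4 pathway lists and the 9 marker lists; filled orange points have an unadjusted p under 0.05 and blue bars are medians. Principal cell markers lie around 0 (median 0.04), intercalated and convoluted tubule markers lie below 0 (medians -0.23 and -0.20), and straight tubule and medulla markers reach farther above 0 (medians 0.52 and 0.46). The adipocyte row includes Retn, with a median of 0.56, against 0.14 without it.

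Genes with the most similar pattern over the 6 arrays were found by the root mean square distance between centred log2 values, among 11923 named genes. Nearest to the brightest Aqp2 probe were Or1o11, Yaf2 and Mark1, at distances of 0.05, 0.07 and 0.07, where the median gene lay at 0.25. Nearest to the brightest Avpr2 probe were Bgn, Cox7a2l and Ccdc17, each at 0.02, against a median of 0.18. The likeness is a description over 6 arrays.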

How the data were processed

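Cy3-labelled renal cortex RNA from each of 6 rats was measured on its own one-colour Agilent array, per the labels. The deposited scanner files were made with Agilent Feature Extraction (10.7.1.1 per the file headers, 10.7 per the submitters' processing notes). They give each spot's intensity after background subtraction and detrending, on a linear scale without scaling between arrays. A deposited table of linear signal, a constant multiple of the scanner intensity within each array, served as 1 alternative. How it was scaled was not stated. That multiple times the array's 75th percentile was 0.997 to 0.999, so this alternative nearly repeats the main scaling. Column medians were 0.111, 0.108 and 0.112 for DPG 1 to 3 and 0.110, 0.111 and 0.114 for controls 1 to 3.

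Log2 intensity had each array's 75th percentile subtracted. Control spots were dropped, and a probe was kept where each of the 3 arrays of either group read it well above background, less 23 with outlier flags, leaving 40383. Names came from probe accessions, without versions, in RefSeq genes of GRCr8 (28206 probes with 1 symbol, 33331 with none). Every kept probe was fitted with limma 3.58.1 in R 4.3.3 (lmFit, eBayes, two-sided), with Benjamini-Hochberg adjustment at 0.05. Exact permutation of 3 against 3 cannot go below p = 0.1. The fit was tested on simulated data. Named genes are all probes of the 9 genes, up to 4 per list by smallest p (those with an unadjusted p under 0.05, and in the lists of other aquaporins and principal cells irrespective of p), and the 3 genes nearest in pattern to Aqp2 and to Avpr2. Normexp was run on the median spot signal, since the mean spot signal was not used here. Genes and lists were chosen with earlier results of these data known. The alternatives were other background correction, scaling, filters, probe summaries and variance models, the deposited table, a replicate block, and leaving out each rat. Some genes of the marker lists are counted but not reported here by name.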

Additional observations from a re-analysis of the deposited data

How the results depend on the processing

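The count of 0 of the 16 probes past the adjusted threshold held in each alternative. Over all probes the adjusted count ranged from 0 to 2 with a rat left out, at 1 without DPG 2 and 2 without control 2. At an unadjusted p of 0.05 the main count of 2 became 1 with normexp, 1 with the brightest probe per gene, 0 with the mean of a gene's probes (fewer features tested in both), and 1 to 3 with a rat left out. The probes behind these counts also changed. With normexp the 1 was Aqp1, and the Aqp4 probes did not pass. Aqp3 was among those that passed without DPG 2 or control 2, and Aqp6 A_64_P122362 without control 3. The replicate numbers do not pair the rats (correlations of deviations of same-numbered rats of -0.03, -0.08 and -0.06). With the replicate block the count of the 16 probes past an unadjusted p of 0.05 was 1, and 4084 of all probes passed, against 5008. A slide block could not be fitted, as each group lay on its own slide. Of 256 single-probe comparisons 242 kept their sign. Runs that changed only the filter, the variance model or the replicate block refitted the same values, so their fold changes could not move. The count of 242 includes them and overstates how stable the signs are. With normexp the second Aqp2 probe was at -0.078, Aqp6 A_44_P558451 at -0.00098 and Avpr2 A_43_P11944 at -0.013, and among markers Scnn1b at -0.0070. With the mean of a gene's probes Aqp6 was at -0.057 and Scnn1a at -0.055. With a rat left out, Aqp2 A_42_P763077 ranged from -0.043 to 0.10, Aqp6 A_44_P558451 from -0.022 to 0.11, Aqp8 from -0.18 to 0.20 (A_64_P152776) and -0.37 to 1.09 (A_44_P244668), Aqp11 from -0.10 to 0.23, Avpr2 from -0.058 to 0.12 (A_43_P11944) and -0.0020 to 0.20 (A_64_P031890), Aqp5 from -0.15 to 0.78, Aqp9 from -0.24 to 0.12, Scnn1a from -0.044 to 0.15 and Scnn1b from -0.047 to 0.11. The cause of these moves was not tested. Scaling moved the median of all probes by less than 0.1. Dim probes (Aqp8, most Aqp4 and Aqp6) carry the least signal over background.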
